A study of Mus musculus with 8 samples.

Results

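The genes examined here were 31 genes of neutrophils and of the signals that attract and sustain them, taken by symbol from a fixed list: chemokines and colony-stimulating factors, surface receptors and antigens, granule proteins and proteases, and cytosolic and secreted proteins. A gene was measured by the probe set that carries its symbol alone, and by the brightest one where it had several. In this way 30 of the 31 genes were measured, of 22180 genes with such a probe set in all, and the formyl peptide receptor gene Fpr1 was not analysed here. The comparison was between colonic tumors, recorded as adenomas, of 4 MDR1A KO mice and of 4 WT mice. All mice were males on the FVB/N background that entered the protocol at 6 weeks of age, and both genotypes were treated alike with azoxymethane (AOM, a colon carcinogen) once at 10 mg/kg and then with dextran sulfate sodium (DSS, which injures the colonic epithelium) at 2.5% in 3 cycles of 7 days. Tumors were taken on day 84. The knockout is global, so every cell type of the tumor lacked MDR1A, and each array held the RNA of 1 whole tumor from 1 mouse.

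Neutrophils are short-lived phagocytes that mature in the bone marrow under granulocyte colony-stimulating factor and enter injured tissue along gradients of CXC chemokines, which they read through the receptor CXCR2. Much of their granule content is transcribed in marrow precursors and not in the mature cell, whereas S100A8, S100A9 and the chemokine and pattern receptors are transcribed in the cell that reaches the tissue. In the DSS-injured colon they are an early and abundant infiltrating leukocyte, and epithelial cells, fibroblasts and macrophages are the usual sources of their chemokines.

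Cxcl1, Cxcl2 and Cxcl3, which encode CXCR2 ligands, lie in 1 cluster on mouse chromosome 5, and their promoters are shown because these chemokines are the signals the receptors below read and because the 3 windows share the letters of a site for NF-kB, the transcription factor that many inflammatory genes answer to. Promoters from RefSeq, 250 bases before to 50 after the gene start on GRCm38.p6, were held for 25 of the 31 genes. Mmp9, Cxcl5, Csf3, Hp, Selplg and Hcar2 had no window and were not searched. The longest run of letters common to the 250 bases before the 3 starts was GGGAATTTCCC. Its presence in these 3 windows, on the coding strand, follows from how it was picked. Searched on both strands, it occurred in 0.0426% of all 32851 promoter windows, these 3 included. Of the 25 genes with a window, only these 3 held it. The stretches below run 5′ to 3′ on the plus strand, with the shared run in capitals, and all of each stretch lies before the gene start.
Cxcl3: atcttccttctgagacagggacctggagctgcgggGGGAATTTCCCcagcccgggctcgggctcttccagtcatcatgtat
Cxcl1: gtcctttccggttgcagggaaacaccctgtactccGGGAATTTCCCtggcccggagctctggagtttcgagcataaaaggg
Cxcl2: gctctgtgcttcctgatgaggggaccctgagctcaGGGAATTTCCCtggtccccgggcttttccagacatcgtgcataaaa
They stand at chr5:90785993-90786073, chr5:90891139-90891219 and chr5:90903767-90903847 in that order. The first base of the run was 73 bases before the start of Cxcl3, 71 before that of Cxcl1 and 97 before that of Cxcl2. With the runs aligned, 37 of 81 bases were identical between Cxcl1 and Cxcl2, 35 between Cxcl3 and Cxcl1 and 29 between Cxcl3 and Cxcl2. A match is a description of the letters and not a measured binding site.

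All values are log2 RMA levels deposited by the authors, and 1 unit is a 2-fold difference. A log2 fold change is the MDR1A KO mean minus the WT mean with its standard error (SE) from limma. Levels of different genes are not compared, since probe sets differ in brightness. The median of the 8 arrays ran from 5.62 to 5.67. Abcb1a, the targeted gene, lay between 6.13 and 6.87 in MDR1A KO tumors and between 8.69 and 9.46 in WT tumors, so that no tumor went against its label, though whether the probe set covers the disrupted stretch is not known here. The mean over 9 epithelial markers was 10.30 to 10.50 in MDR1A KO tumors and 10.53 to 10.67 in WT tumors, without overlap of the groups in this mean. Taken singly, 2 of the 9 markers, Krt19 and Krt20, did not overlap (3.72% of named probe sets). The groups overlapped in the others, Epcam and Vil1 among them. All 9 were above the median named probe set. Of the 30 neutrophil genes, 21 were above that median and 6 were in the dimmest 33.3% of named probe sets, namely Csf2, Csf3, Fpr2, Camp, Ngp and Mpo. In whole tumors, fewer neutrophils and less RNA of these genes per neutrophil cannot be told apart.

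Neutrophil genes as a group did not separate the genotypes, and single WT tumors differed in them far more than MDR1A KO tumors did. No member passed an adjusted p under 0.05 in limma (0 of 30, lowest adjusted p 0.686), where 0.0158% of the 25341 named probe sets did. At an unadjusted p under 0.05, 1 member was higher in MDR1A KO tumors and 0 were lower, where 6.4% of named probe sets passed, 3.66% higher and 2.74% lower. The member was Cd177. Past the criterion of the study's methods, which asks for a 2-fold change as well as that p, there were 0 members (0.241% of named probe sets), and in 0 members did the 4 MDR1A KO values all lie above or all below the 4 WT values (3.72% of named probe sets, 2.13% above and 1.59% below). Of the 30 means, 9 lay above and 21 below the WT mean, with a median log2 fold change of -0.19, where 50.3% of named probe sets had the higher mean in MDR1A KO tumors and the median was 0.001. The sign of that median rested on 1 tumor, as leaving out WT replicate 1 gave 0.16 and leaving out WT replicate 4 gave -0.53.

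**Figure D1:**
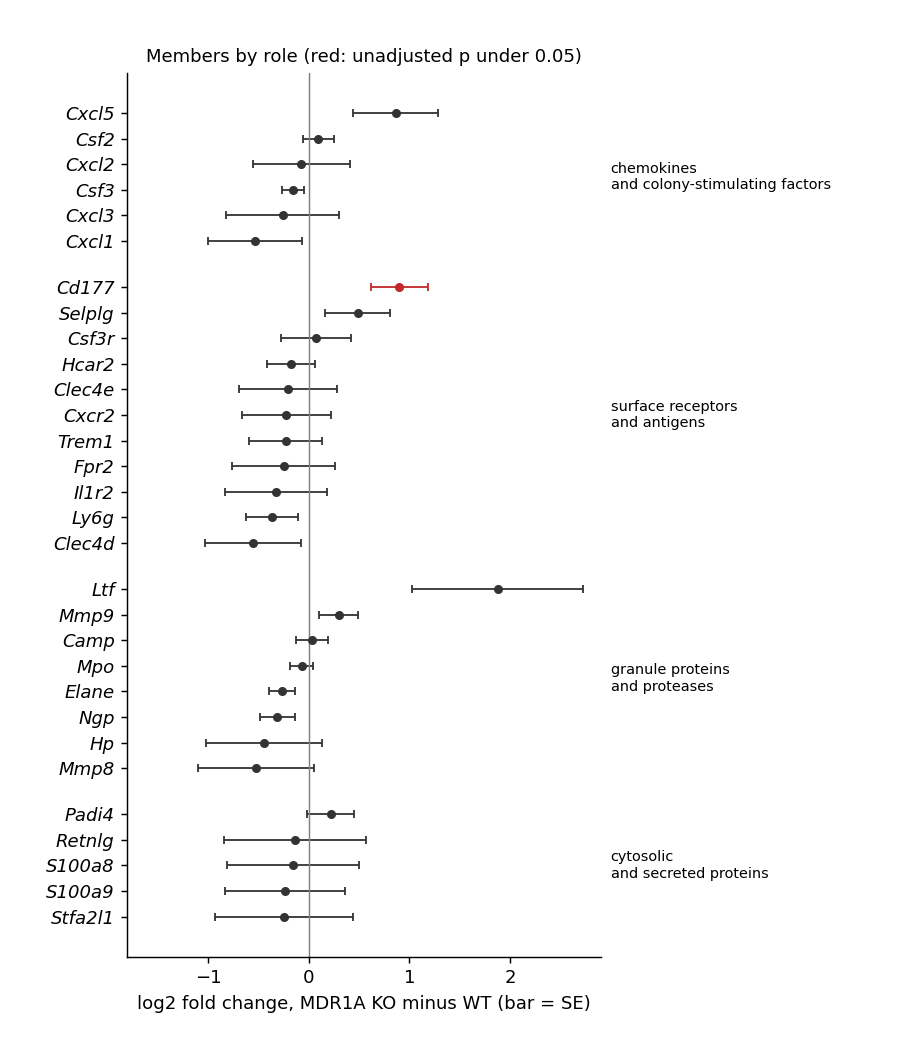
Log2 fold change (MDR1A KO minus WT) of each of the 30 measured genes, by role, with the SE from limma as the bar. Cd177 at 0.90 is the gene with an unadjusted p under 0.05, Ltf at 1.88 has the largest value and the widest bar, Cxcl5 is at 0.86, and the other genes lie between -0.55 and 0.49.

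The chemokines were the first question, as they are the signals that tumor and stroma send. Cxcl1 had levels of 6.44, 6.39, 6.85 and 7.23 in MDR1A KO tumors, against 8.82, 7.11, 6.37 and 6.76 in WT tumors, replicates 1 to 4 of each genotype in order here and throughout. Cxcl2 had levels of 7.56, 8.11, 7.76 and 7.90 in MDR1A KO tumors, against 9.32, 7.37, 8.32 and 6.62 in WT tumors. Cxcl3 had levels of 5.71, 6.87, 5.69 and 6.75 in MDR1A KO tumors, against 7.11, 6.15, 7.80 and 4.97 in WT tumors. In all 3 genes the MDR1A KO values lay inside the WT range, and the WT tumors spanned 5.47-fold in Cxcl1, 6.49-fold in Cxcl2 and 7.11-fold in Cxcl3. WT replicate 1 was the highest tumor in Cxcl1 and Cxcl2 and WT replicate 3 in Cxcl3, while WT replicate 4 was the lowest in Cxcl2 and Cxcl3 and WT replicate 3 in Cxcl1. The log2 fold changes were -0.54 ± 0.47 (SE) for Cxcl1, -0.07 ± 0.48 for Cxcl2 and -0.26 ± 0.56 for Cxcl3, with adjusted p-values of 0.886, 0.992 and 0.963 from limma. The 3 genes with the shared promoter letters thus did not order the 8 tumors alike.

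Cxcl5, a CXCR2 ligand made largely by epithelial cells, had levels of 9.19, 10.26, 9.66 and 9.32 in MDR1A KO tumors, against 9.95, 8.92, 8.32 and 7.80 in WT tumors. Its MDR1A KO values were above 3 of the 4 WT values, and WT replicate 1 lay among them. The log2 fold change was 0.86 ± 0.42 (SE, unadjusted p 0.0702 and adjusted p 0.793 from limma). With 1 tumor left out it ran from 0.55 (without WT replicate 4) to 1.26 (without WT replicate 1). Only without WT replicate 1, in 1 of these 8 settings, was the unadjusted p under 0.05. It was 0.00354 there, with an adjusted p of 0.693 (limma).

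Both colony-stimulating factors were dim and flat. Csf3, the gene of granulocyte colony-stimulating factor, had levels of 4.82, 4.98, 4.92 and 4.58 in MDR1A KO tumors, against 5.13, 4.92, 5.02 and 4.83 in WT tumors. Csf2, the gene of granulocyte-macrophage colony-stimulating factor, had levels of 4.17, 4.40, 4.39 and 4.17 in MDR1A KO tumors, against 4.31, 3.74, 4.17 and 4.51 in WT tumors. The groups overlapped in both genes, and their means lay in the dimmest 33.3% of named probe sets, so that little can be read from the order of the tumors.

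**Figure D2:**
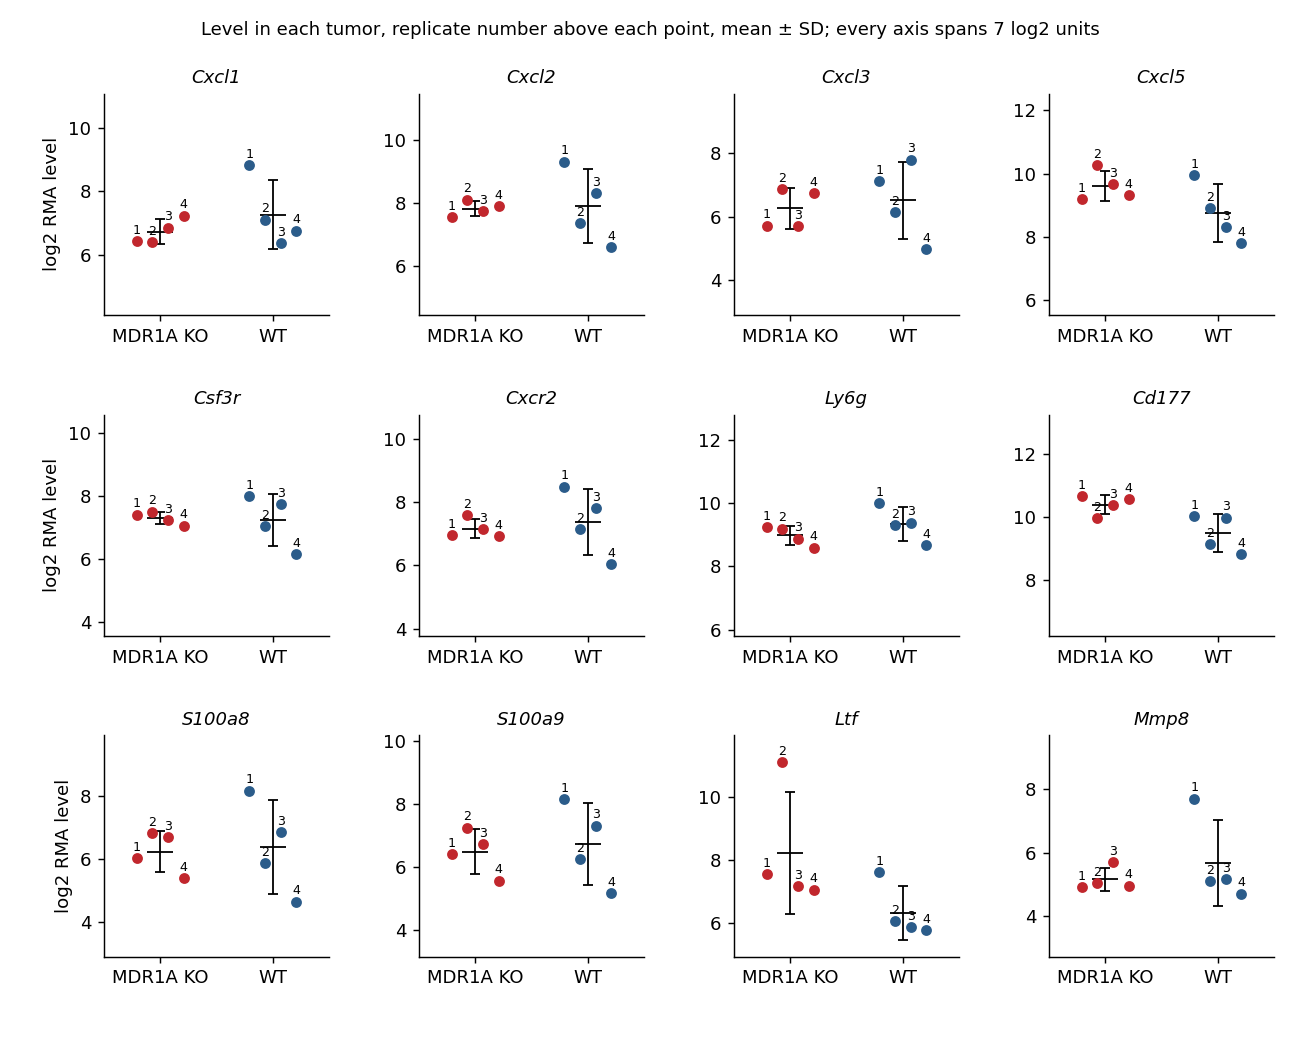
Log2 RMA level of 12 genes in each tumor, MDR1A KO tumors in red on the left and WT tumors in blue on the right of each panel, with the replicate number above each point and the mean ± SD in black. The MDR1A KO points lie close together in most panels, WT replicate 1 stands at or near the top of the WT points and WT replicate 4 at or near the bottom, and Ltf shows MDR1A KO replicate 2 alone at 11.09.

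Among the receptors, Csf3r, the receptor of granulocyte colony-stimulating factor, had levels of 7.41, 7.50, 7.24 and 7.06 in MDR1A KO tumors, against 7.99, 7.04, 7.75 and 6.16 in WT tumors. Cxcr2, the receptor of the 4 chemokines above, had levels of 6.97, 7.58, 7.16 and 6.91 in MDR1A KO tumors, against 8.49, 7.14, 7.82 and 6.05 in WT tumors. In each gene the highest tumor was WT replicate 1, followed by WT replicate 3, and the lowest was WT replicate 4, with the MDR1A KO tumors between. The MDR1A KO tumors spanned 1.36-fold in Csf3r and 1.59-fold in Cxcr2, and the WT tumors 3.55-fold and 5.43-fold in the same genes. The log2 fold changes were 0.07 ± 0.35 (SE, adjusted p 0.986 from limma) and -0.22 ± 0.44 (adjusted p 0.956).

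The pattern receptors mostly followed the same tumors. Trem1, an amplifier of phagocyte activation, and Clec4d and Clec4e, a pair of C-type lectin receptors for microbial glycolipids, ranged from 5.60, 5.59 and 4.97 in WT replicate 4 to 7.49, 8.09 and 7.32 in WT replicate 1, with Clec4e highest in WT replicate 3 at 7.50. Il1r2, the decoy receptor of interleukin 1, spanned 1.86-fold in MDR1A KO tumors and 7.33-fold in WT tumors. The dim Fpr2, a formyl peptide receptor, had its highest level in WT replicate 1 and its lowest in MDR1A KO replicate 4. Log2 fold changes of these 5 genes ran from -0.55 for Clec4d to -0.20 for Clec4e, each smaller than the SD of the WT tumors, and the lowest of their adjusted p-values was 0.885 in limma.

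Ly6g, the surface antigen by which mouse neutrophils are commonly identified, was bright and had levels of 9.24, 9.20, 8.88 and 8.60 in MDR1A KO tumors, against 10.01, 9.29, 9.39 and 8.69 in WT tumors. Here 3 WT tumors were above all MDR1A KO tumors and WT replicate 4 was near the bottom, and the WT tumors spanned 2.50-fold. The log2 fold change was -0.36 ± 0.26 (SE, adjusted p 0.858 from limma). Without WT replicate 4 it was -0.58 with an unadjusted p of 0.025 (limma), and without WT replicate 1 it was -0.14. The unadjusted p was under 0.05 in 1 of the 8 settings with a tumor left out.

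Cd177, a neutrophil surface antigen that in human carries proteinase 3, went the other way. Which cells of the whole tumor held the RNA of Cd177 was not tested. Its levels were 10.66, 9.97, 10.37 and 10.56 in MDR1A KO tumors, against 10.03, 9.13, 9.98 and 8.82 in WT tumors. The groups overlapped through 1 MDR1A KO tumor, as MDR1A KO replicate 2 lay below WT replicates 1 and 3 and the other 3 MDR1A KO tumors were above all WT tumors. The means were 10.39 ± 0.31 in MDR1A KO tumors and 9.49 ± 0.61 in WT tumors (SD, n = 4 each), and the log2 fold change was 0.90 ± 0.28 (SE) with an unadjusted p of 0.0105, an adjusted p of 0.686 in limma and p = 0.086 in a two-sided exact permutation test, for which the smallest p of 4 tumors against 4 is 0.029. The unadjusted p stayed under 0.05 in all 18 alternative settings tried, between 0.00432 and 0.0386, and the adjusted p was between 0.317 and 0.997. Cd177 is thus the 1 member with an unadjusted p under 0.05 in limma, and it did not pass after correction over all probe sets.

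The remaining surface genes were Selplg, which encodes the P-selectin ligand that lets leukocytes roll on vessels, and Hcar2, a receptor for butyrate and niacin. Selplg ranged from 7.39 to 8.09 in MDR1A KO tumors and from 6.51 to 7.94 in WT tumors, with a log2 fold change of 0.49 ± 0.32 (SE). Hcar2 ranged from 6.22 to 6.81 in MDR1A KO tumors and from 6.16 to 7.35 in WT tumors, with a log2 fold change of -0.17 ± 0.24. The groups overlapped in both.

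Granule genes divided by how much they varied. Mmp8, the neutrophil collagenase, had levels of 4.90, 5.04, 5.70 and 4.95 in MDR1A KO tumors, against 7.70, 5.09, 5.17 and 4.70 in WT tumors. Apart from WT replicate 1, which stood 2.53 above the next WT tumor, the 7 other tumors lay within 1.00 of each other. Hp, the gene of the hemoglobin-binding haptoglobin, ranged from 7.01 to 7.75 in MDR1A KO tumors and from 6.06 in WT replicate 4 to 9.42 in WT replicate 1, a WT span of 10.3-fold. Mmp9, the gelatinase that macrophages make as well, did not follow these tumors and ranged from 7.74 to 8.70 in MDR1A KO tumors, the highest in replicate 4, and from 7.72 to 8.02 in WT tumors.

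Of the genes transcribed in marrow precursors, Camp, Ngp and Mpo had means in the dimmest 33.3% of named probe sets, and the mean of Elane was below the median one. Camp, which encodes the cathelicidin peptide, had levels of 3.82, 3.84, 3.86 and 3.47 in MDR1A KO tumors, against 3.35, 3.98, 3.54 and 3.98 in WT tumors. Ngp, a neutrophilic granule protein, and Mpo, myeloperoxidase, stayed between 4.20 and 4.98 in MDR1A KO tumors and between 4.20 and 5.06 in WT tumors. Elane, neutrophil elastase, ranged from 4.97 to 5.23 in MDR1A KO tumors and from 5.13 to 5.68 in WT tumors, with a log2 fold change of -0.27 ± 0.13 (SE, unadjusted p 0.0649 and adjusted p 0.790 from limma). WT replicate 1 was the lowest tumor of Camp and the highest of Ngp, and at these dim probe sets little can be read from the order.

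Ltf, the gene of the iron-binding protein lactoferrin, which gland epithelium makes as well as neutrophils, had the largest fold change and the largest error. Its levels were 7.55, 11.09, 7.17 and 7.07 in MDR1A KO tumors, against 7.61, 6.06, 5.89 and 5.79 in WT tumors. All 4 MDR1A KO tumors were above WT replicates 2, 3 and 4, WT replicate 1 was above 3 of them, and MDR1A KO replicate 2 stood 3.48 above the next tumor. The log2 fold change was 1.88 ± 0.85 (SE), with an unadjusted p of 0.0529, an adjusted p of 0.781 (limma) and p = 0.114 in the two-sided exact permutation test. It was 0.92 without MDR1A KO replicate 2 and 2.30 without WT replicate 1, where the unadjusted p was 0.0313. Ppbp, a platelet and CXC chemokine gene of the list of further signals below, named after its values were seen, was likewise highest in MDR1A KO replicate 2, with levels of 8.37, 11.39, 6.80 and 6.18 in MDR1A KO tumors, against 7.98, 5.80, 6.37 and 5.23 in WT tumors.

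Of the cytosolic and secreted proteins, S100a8 and S100a9 encode the subunits of calprotectin, a major cytosolic protein of neutrophils. S100a8 had levels of 6.03, 6.82, 6.69 and 5.39 in MDR1A KO tumors, against 8.16, 5.87, 6.86 and 4.65 in WT tumors. S100a9 had levels of 6.41, 7.25, 6.71 and 5.57 in MDR1A KO tumors, against 8.15, 6.25, 7.31 and 5.17 in WT tumors. The 8 tumors stood in the same order in both genes, with WT replicate 1 on top and WT replicate 4 at the bottom, and MDR1A KO replicate 4 was the lowest of its genotype. The MDR1A KO span was 2.70-fold in S100a8 and 3.20-fold in S100a9, and the WT span 11.4-fold and 7.86-fold in the same genes. Against this spread the log2 fold changes were -0.15 ± 0.66 (SE, adjusted p 0.984 from limma) and -0.23 ± 0.59 (adjusted p 0.968).

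Retnlg, which encodes a resistin-like secreted protein, had the widest WT span of the members, 14.7-fold, with levels between 5.81 and 7.32 in MDR1A KO tumors and between 5.08 and 8.95 in WT tumors. Stfa2l1, of the stefin A family of cysteine protease inhibitors, spanned 4.81-fold in MDR1A KO tumors and 10.3-fold in WT tumors. Stefin genes have close copies, so its value may hold signal of its relatives. Padi4, the enzyme that converts arginine to citrulline in histones when neutrophils release their chromatin, ranged from 6.53 to 7.53 in MDR1A KO tumors and from 6.55 to 7.30 in WT tumors, and was among the members that did not follow WT replicates 1 and 4.

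**Figure D3:**
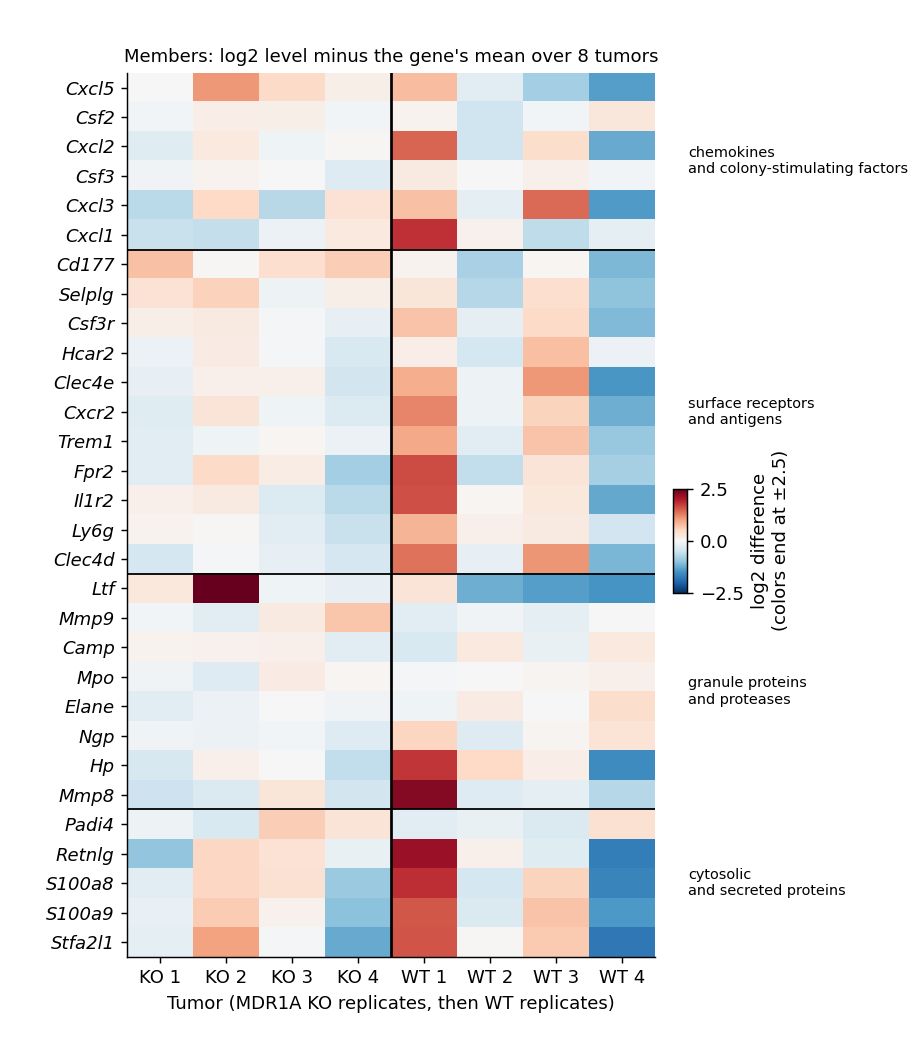
Log2 level of each of the 30 genes in each tumor minus the mean of that gene over the 8 tumors, with MDR1A KO replicates in the left columns, WT replicates in the right columns, and genes grouped by role. The column of WT replicate 1 is red and that of WT replicate 4 blue for most chemokines, receptors and cytosolic genes, while Camp, Mpo, Elane, Mmp9, Padi4 and the colony-stimulating factors are pale, and the value of Ltf in MDR1A KO replicate 2 is beyond the end of the colors.

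Neutrophil genes differed mainly between individual WT tumors. WT replicate 1 was the highest of the 8 tumors in 17 of 30 members (12.7% of named probe sets), WT replicate 4 the lowest in 18 (15.7%), and both held in 12 (3.19%). These tumors were singled out after their values were seen. The 12 genes were the chemokine Cxcl2, the receptors Csf3r, Cxcr2, Il1r2, Trem1 and Clec4d, the granule genes Mmp8 and Hp, and S100a8, S100a9, Retnlg and Stfa2l1. Across them WT replicate 1 exceeded WT replicate 4 by 1.83 to 3.88 on the log2 scale, with a median of 2.92. No log2 fold change between genotypes was outside -0.55 to 0.07. The 12 genes were picked by this order of the tumors. A gap in this direction, and MDR1A KO values inside the WT range, thus follow from the pick.

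The MDR1A KO tumors had the smaller SD in 25 of 30 members, as they had in 65.3% of named probe sets. The exceptions were Csf3, Mmp9, Mpo, Padi4 and Ltf. The median SD of the members was 0.31 in MDR1A KO tumors and 0.90 in WT tumors, beside 0.14 in MDR1A KO tumors and 0.18 in WT tumors over all named probe sets. An SD over 1 was found for 1 member in MDR1A KO tumors (Ltf) and for 14 in WT tumors, beside 0.529% and 0.876% of named probe sets. All 4 MDR1A KO values lay within the WT range in 18 members (31.6% of named probe sets). With both WT replicates 1 and 4 left out the median SD of WT tumors was 0.43, and it was above that of MDR1A KO tumors in 18 of 30 members (53.8% of named probe sets). These 2 tumors were the extremes of many of the same genes, so that a smaller SD without them follows from how they were picked. The wider WT spread was not particular to neutrophil genes. The WT SD was also the larger in all 14 macrophage and monocyte, 8 mast cell, 7 fibroblast, 6 smooth muscle and 5 B cell markers measured. It was the larger in 6 of 9 epithelial and 3 of 6 eosinophil markers. The median SD of smooth muscle markers was 0.21 in MDR1A KO tumors and 1.12 in WT tumors. The SDs are given as descriptions of 4 tumors each, with no test.

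**Figure D4:**
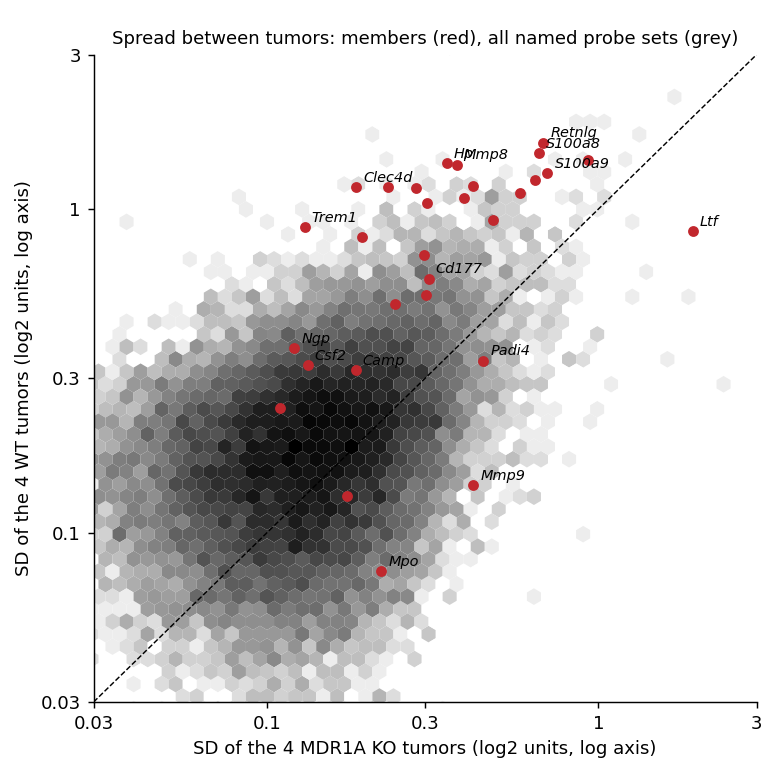
SD of the 4 WT tumors against SD of the 4 MDR1A KO tumors, in log2 units on log axes, for the neutrophil genes (red points) and all named probe sets (grey, darker where more lie). Of the 30 red points 25 are above the dashed line of equal SD, and Ltf, Mmp9, Mpo, Padi4 and Csf3 are below it.

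Further neutrophil genes were described beside the members, from a list of 40 of which 38 were measured. At an unadjusted p under 0.05 in limma, 2 were higher and 1 was lower in MDR1A KO tumors. Over all named probe sets the shares were 3.66% and 2.74%. After adjustment 0 of the 38 passed, and their median log2 fold change was 0.04. Csf2ra, a subunit of the receptor for granulocyte-macrophage colony-stimulating factor that macrophages carry too, averaged 8.77 ± 0.16 on the log2 scale in MDR1A KO tumors and 8.40 ± 0.10 in WT tumors (SD, n = 4 each). Its groups did not overlap (3.72% of named probe sets) and its log2 fold change was 0.37 ± 0.10 (SE, adjusted p 0.610 from limma). Pilra, an inhibitory receptor of myeloid cells, had a log2 fold change of 0.52 ± 0.19 and Chil3, a chitinase-like secreted protein at a dim probe set, one of -0.92 ± 0.32. WT replicate 1 was highest in 16 of these 38 genes (12.7% of named probe sets) and WT replicate 4 lowest in 16 (15.7%). Both held in 5 (3.19%), among them Hdc, the histamine-forming enzyme, and the chemokine receptor gene Cxcr4.

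Of 17 other attracting and inducing signals, 2 were higher and 2 were lower in MDR1A KO tumors at an unadjusted p under 0.05 in limma. Over all named probe sets the shares were 3.66% and 2.74%. After adjustment 0 of the 17 passed, and their median log2 fold change was 0.01. Csf1, the growth factor of macrophages, had a log2 fold change of 0.61 ± 0.16 (SE, adjusted p 0.566 from limma), and Tnf, an inflammatory cytokine, one of 0.62 ± 0.20 (adjusted p 0.708). Il6, which encodes another inflammatory cytokine, had levels of 3.73, 3.28, 3.39 and 3.73 in MDR1A KO tumors, against 6.89, 4.51, 4.50 and 3.80 in WT tumors. Its groups did not overlap (3.72% of named probe sets), with a log2 fold change of -1.39 ± 0.55 (adjusted p 0.756 from limma). It was the 1 gene of this list past the criterion of the methods when the p came from limma (0.241% of named probe sets). The study's own list of regulated genes, made with its own test, does not hold Il6. The probe set was dim, and WT replicate 1, the tumor highest in most members, stood apart from the others. Il1a, a cytokine of injured epithelium, had a log2 fold change of -0.44 ± 0.19 (adjusted p 0.771). Il1b, another inducer of CXC chemokines, followed the spread of the members in part, with levels of 9.75 to 10.20 in MDR1A KO tumors and 9.06 to 10.80 in WT tumors, lowest in WT replicate 4 and highest in WT replicate 3.

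The 8 vessel adhesion genes by which leukocytes leave the blood gave 0 calls in either direction and a median log2 fold change of -0.11. Over all named probe sets 3.66% were called higher and 2.74% lower. WT replicate 4 was the lowest tumor in 6 of the 8 (15.7% of named probe sets). Selp, the vessel selectin that binds the product of Selplg, was between 6.51 and 7.60 in MDR1A KO tumors and between 6.10 and 8.23 in WT tumors. The mean level of the 8 genes was 6.79 to 7.03 in MDR1A KO tumors and 6.46 to 7.48 in WT tumors, lowest in WT replicate 4.

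Markers of other cells moved with some of these tumors, and their part in the values above was not tested. Of the macrophage and monocyte markers, 7 of 14 had the higher mean in MDR1A KO tumors at an unadjusted p under 0.05 in limma. The lower mean at that p was found in 0, and 0 passed after adjustment. Over all named probe sets 3.66% were higher and 2.74% lower at that p. The macrophage and monocyte markers had a median log2 fold change of 0.39, where the neutrophil genes had -0.19. The median was larger for smooth muscle markers (0.87) and mast cell markers (0.43), whose means were higher in MDR1A KO tumors in 6 of 6 and 8 of 8 genes, with 0 of either list at an unadjusted p under 0.05. Among the macrophage markers were Adgre1, which encodes F4/80 (0.67 ± 0.14), the chemokine receptor gene Cx3cr1 (0.87 ± 0.27), the complement gene C1qb (0.51 ± 0.18) and Lyz2, a lysozyme that neutrophils make as well (0.35 ± 0.12). The mean level of these markers was 8.39 to 8.49 in MDR1A KO tumors and 8.27, 7.78, 8.48 and 7.78 in WT tumors, so WT replicate 1, on top for neutrophil genes, was not on top for macrophage genes. Smooth muscle markers averaged 10.3 to 10.7 in MDR1A KO tumors and 9.95, 8.60, 11.0 and 8.36 in WT tumors, and mast cell markers 8.21 to 8.49 in MDR1A KO tumors and 7.65, 6.87, 7.66 and 9.01 in WT tumors. WT replicate 4, the lowest in most neutrophil genes, was thus also the lowest in smooth muscle markers and the highest in mast cell markers. B cell markers ranged from 5.67 to 7.00 in MDR1A KO tumors and from 5.11 to 7.82 in WT tumors, highest in WT replicate 3. T and NK cell markers ranged from 6.02 to 6.35 in MDR1A KO tumors and from 5.30 to 6.32 in WT tumors. Their means were higher in MDR1A KO tumors in 7 of 7 genes. At an unadjusted p under 0.05 in limma there was 1, Cd3g (0.99 ± 0.40), with 0 after adjustment. Eosinophil markers averaged 4.04 to 4.20 in MDR1A KO tumors and 4.06 to 4.18 in WT tumors, below 5.06, the top of the dimmest 33.3% of named probe sets. Fibroblast markers gave 0 calls, at 9.86 to 10.0 in MDR1A KO tumors and 9.30 to 10.3 in WT tumors. In the epithelial list 8 of 9 means were lower in MDR1A KO tumors. At an unadjusted p under 0.05 in limma 0 markers were higher and 2 were lower, beside 3.66% and 2.74% of named probe sets. The 2 lower markers were the keratin gene Krt20 (-0.65 ± 0.19) and Cdx2, an intestinal transcription factor (-0.65 ± 0.26).

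**Figure D5:**
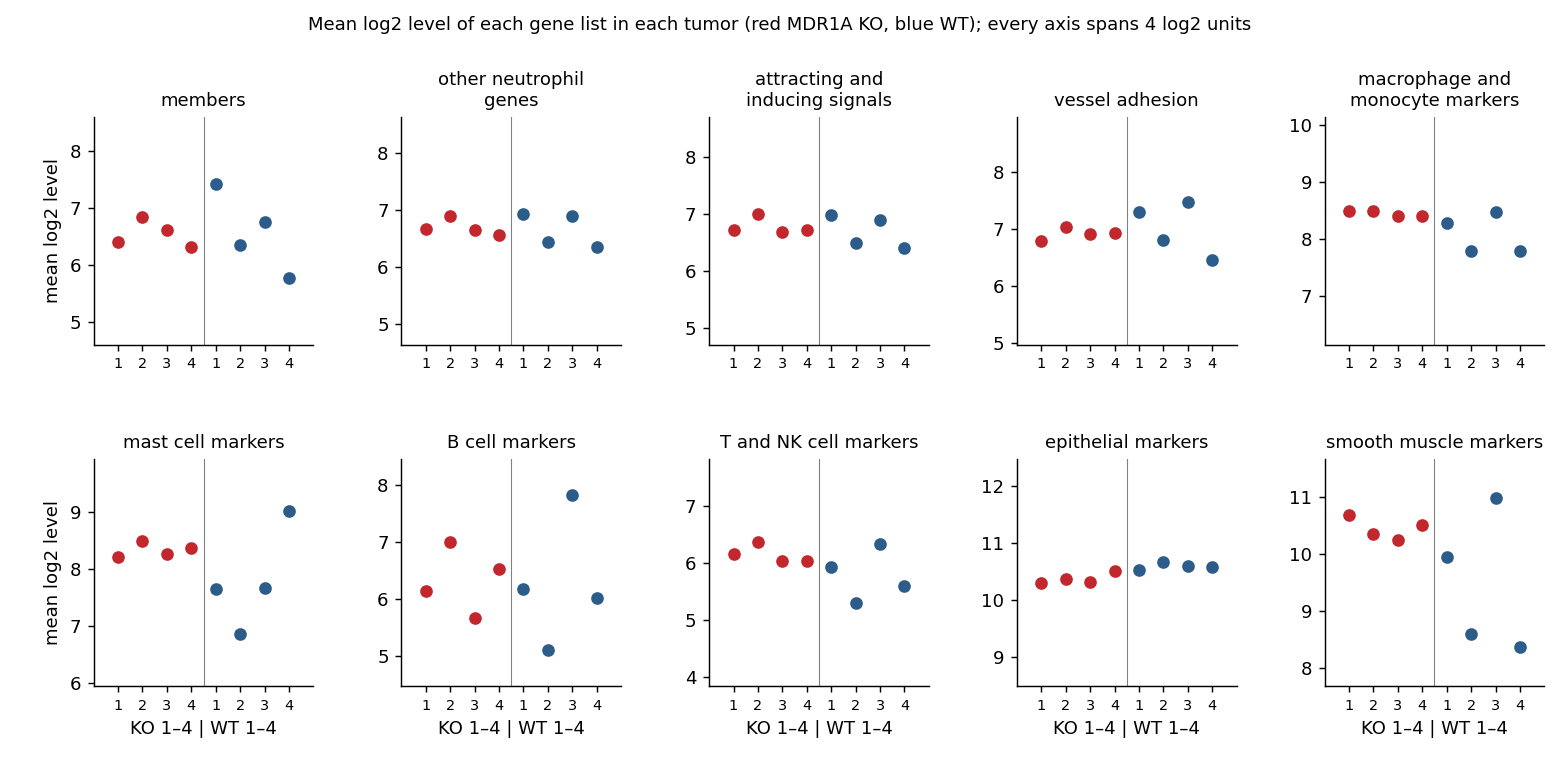
Mean log2 RMA level of 10 gene lists in each tumor, MDR1A KO replicates 1 to 4 in red at the left and WT replicates 1 to 4 in blue at the right of each panel, with the same span on every axis. The members run from 5.77 in WT replicate 4 to 7.42 in WT replicate 1 with the MDR1A KO tumors between 6.32 and 6.85. The epithelial markers span less, from 10.30 to 10.50 in MDR1A KO tumors and from 10.53 to 10.67 in WT tumors, without overlap.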

How the data were processed

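The authors deposited log2 signals per probe set of GeneChip Mouse Gene 2.0 ST arrays. They had computed them with the robust multichip average (RMA), which corrects background, gives all arrays 1 distribution and summarises probes, in the Affymetrix Expression Console version 1.4. Probe sets were named from the platform annotation with symbols updated through RefSeq: 23521 of 41345 had 1 symbol, 1820 several and 16004 none. The genotypes were compared with lmFit and eBayes of limma 3.58.1 (R 4.3.3), which gave log2 fold changes (MDR1A KO minus WT), standard errors and two-sided p-values, with Benjamini-Hochberg adjustment over 25341 named probe sets. The fit was tested on simulated data. The methods' own unpaired test was an alternative. The members, lists and rules were chosen with earlier results of these data known. Per-tumor values are given for the chemokines, colony-stimulating factors, S100a8, S100a9, Csf3r, Cxcr2, Ly6g, members at an unadjusted p under 0.05 and members with 1 tumor far from the others of its genotype, and for other lists up to 4 genes of smallest p are named. Il1b, Selp, Hdc, Cxcr4 and Ppbp were named after their values were seen. Python 3.11.15 with numpy 2.4.6, pandas 2.3.3 and matplotlib 3.10.9 made the tables and plots. The extraction kit, 1 of a pair, is not stated for single tumors in the sources used here, and it could not be examined as a batch. The number of arrays limits the precision. The qPCR, staining and human data of the study were not analysed here.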

Additional observations from a re-analysis of the deposited data

Results flagged for a closer look

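In 4 of 60 groups of 4 tumors (30 genes in each genotype), 1 tumor stood apart from the others of its genotype by Dixon's criterion, which chance meets in about 1 of 20 groups. Ltf was 11.09 in MDR1A KO replicate 2, and 7.61 in WT replicate 1, each above the 3 other tumors of its genotype. Mmp8 was 7.70 in WT replicate 1. Camp was 3.47 in MDR1A KO replicate 4, below the others and at a dim probe set.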

How the results depend on the processing

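With 10 other settings (the methods' t-test, all probe sets, 1-symbol probe sets alone, the dimmest 33.3% left out, eBayes with trend and robust, array weights, quantile normalization again, arrays centred on the median, mean of all probe sets of a gene, replicate block) and with each of the 8 tumors left out, 0 members reached an adjusted p under 0.05, the lowest being 0.317. At an unadjusted p under 0.05 there were 2 members with arrays centred on the median (Cd177 and Elane), where 6.62% of named probe sets passed. With a tumor left out there were 1 to 5 of the 30 members, where 4.64% to 8.84% of named probe sets passed. Without WT replicate 1 these were Cd177, Cxcl5, Elane and Ltf, 4 in all (6.02% of named probe sets). Without WT replicate 4 they were Cd177, Clec4d, Clec4e, Hp and Ly6g, 5 in all (6.53% of named probe sets). Past the criterion of the methods, with the p from limma, there were 0 to 3 members with a tumor left out, beside 58 to 123 of the 25341 named probe sets. The median log2 fold change was between -0.53 and 0.16 with a tumor left out. The count of members with the larger WT SD, an alternative added after seeing the data, was 23 to 26 with 1 tumor left out and 25 with arrays centred on the median.

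Replicate numbers name separate mice, and the labels give no pairing by number. Deviations of same-numbered tumors from their group means correlated at 0.11, 0.02, -0.10 and 0.35. The highest correlation of each MDR1A KO tumor with any WT tumor was 0.18, 0.29, 0.12 and 0.35, the last with its same-numbered tumor. Whether same-numbered tumors shared a batch cannot be told from so few values. With the replicate block 3 members had an unadjusted p under 0.05 (Cd177, Ltf and Ly6g), where 6.56% of named probe sets did. Of the members 1 passed the criterion of the methods, beside 65 of the 25341 named probe sets.

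The sign turned in at least 1 alternative in 18 members, none of which passed an adjusted or, in the main setting, an unadjusted p under 0.05. Outside the left-out tumors it turned in 2 dim genes, Camp with arrays centred on the median (-0.0064) and Csf2 with the mean of its probe sets (-0.0142). With a tumor left out, log2 fold changes ran from -0.73 to 0.44 for S100a8, -0.75 to 0.24 for S100a9, -0.29 to 0.32 for Csf3r and -0.66 to 0.15 for Cxcr2. They ran from -0.50 to 0.40 for Cxcl2, -0.77 to 0.18 for Cxcl3, -0.84 to 0.16 for Mmp8 and -0.086 to 0.13 for Camp. For Fpr2 they were -0.57 to 0.25, for Clec4e -0.72 to 0.12, for Trem1 -0.58 to 0.0501, for Il1r2 -0.80 to 0.16 and for Hcar2 -0.35 to 0.0499. For Stfa2l1 they were -0.88 to 0.24, for Retnlg -0.73 to 0.56, for Csf2 -0.0517 to 0.21, for Hp -1.04 to 0.0781 and for Mpo -0.15 to 0.0254. The tumor whose removal moved a member most was WT replicate 1 or 4 in 22 of 30 members. The cause was not tested.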
